A study of Homo sapiens with 3 samples.

Results

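The α- and β-tubulin isotypes are the 10 genes TUBA1A, TUBA1B, TUBA1C, TUBA4A, TUBB, TUBB2A, TUBB2B, TUBB3, TUBB4B and TUBB6, of 19699 genes that could be named on the arrays. They were chosen by name, with earlier results of these data known. The RefSeq accession of each probe was matched without its version to a gene symbol. All 16 probes of these genes were taken, of 34041 probes with a value. The cells were PANC-1, an established line from a human pancreatic ductal carcinoma, and all groups were grown in DMEM with serum. The control group had no agent, and whether it received a vehicle is not given in the sources used here. The second group received 20 µM cantharidin (CAN), a compound from blister beetles, and the third received 20 µM okadaic acid (OA), a marine toxin, each for 24 h. Both compounds inhibit protein phosphatase 2A (PP2A) and related serine/threonine phosphatases. Each group was a single array of total RNA, so no difference given here has a replicate check, no test across arrays was possible, and anything particular to 1 culture or 1 array cannot be told apart from the treatment.

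Microtubules are polymers of heterodimers, each made of an α- and a β-tubulin, and several genes encode near-identical forms of either subunit, called isotypes. New tubulin chains are folded by prefoldin and the CCT chaperonin and joined into dimers by a set of cofactors. The γ-tubulin ring complexes seed the polymer, and enzymes add or remove chemical groups on tubulin. Cells adjust tubulin mRNA to the amount of free dimer by autoregulation, in which TTC5 recognises nascent tubulin chains and recruits SCAPER and the CCR4-NOT deadenylase. Among β isotypes, TUBB3 is best known in neurons and has often been studied in tumours treated with taxanes, and in carcinoma cells TUBB and TUBA1B are commonly the main forms.

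The 6 markers chosen for the line were measured well above background on all 3 arrays. VIM, an intermediate filament of mesenchymal cells, gave intensities of 311685 in control, 304354 under CAN and 236756 under OA, and KRT18, a keratin of simple epithelia, gave 70664, 127869 and 193320. The other keratins gave 51898, 20992 and 53027 for KRT8, 19966, 12276 and 14239 for KRT7, and 2503, 3094 and 7746 for KRT19. EPCAM, an epithelial adhesion protein, gave 1286, 342 and 698. Of the markers of blood, endothelium and neurons given here, PECAM1 and RBFOX3 were not above background on any array. PTPRC, CD3E, CDH5 and SYP were flagged well above background on all 3, with intensities between 223 and 460. The flag thus also passed markers of other cell types, which limits what it shows for dim signals. In control, TUBA4A lay just above this range, at 472 to 716 on its probes. MAP2 (265) and MAP1B (210), given below, lay in or under it. All 16 tubulin spots were unflagged, unsaturated and well above background on every array. Among probes printed in 10 spots and as bright as the tubulins, the median SD between spots was 0.05 in control, 0.08 under CAN and 0.06 under OA on the log2 scale. This spread covers spot noise only and not the variation between cultures.

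The stretch of 250 bases before the annotated start is printed for 3 isotypes with higher signals after treatment (TUBB2A, TUBB2B, TUBA4A) and 2 with lower signals (TUBB, TUBA1B), so that the regulatory sequence of isotypes on opposite sides of control can be set side by side. Sequences are from RefSeq on GRCh38.p14 and run 5′ to 3′ on the gene's strand. Capitals mark matches to the GC box (GGGCGG), the CCAAT box (CCAAT), the TATA box (TATAAA), the cell cycle homology region CHR (TTTGAA), the cAMP response element CRE (TGACGTCA) and the AP-1 site (TGANTCA), searched on both strands with overlapping matches kept. The motifs were chosen after the array values were known. The windows lie at chr6:3157545-3157794 on the minus strand for TUBB2A, at chr6:3227654-3227903 on the minus strand for TUBB2B, at chr2:219253919-219254168 on the minus strand for TUBA4A, at chr6:30720102-30720351 on the plus strand for the first of TUBB's 2 starts, and at chr12:49131396-49131645 on the minus strand for TUBA1B.
TUBB2A: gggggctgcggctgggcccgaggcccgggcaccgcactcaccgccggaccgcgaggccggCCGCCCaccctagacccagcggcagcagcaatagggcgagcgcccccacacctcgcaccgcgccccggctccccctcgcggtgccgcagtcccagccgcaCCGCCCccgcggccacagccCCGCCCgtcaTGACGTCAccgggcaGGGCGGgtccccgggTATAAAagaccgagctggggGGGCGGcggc
TUBB2B: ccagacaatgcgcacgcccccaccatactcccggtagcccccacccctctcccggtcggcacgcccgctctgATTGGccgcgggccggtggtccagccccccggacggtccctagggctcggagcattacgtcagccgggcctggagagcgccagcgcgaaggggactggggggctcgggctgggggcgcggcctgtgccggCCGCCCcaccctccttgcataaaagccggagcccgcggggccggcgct
TUBA4A: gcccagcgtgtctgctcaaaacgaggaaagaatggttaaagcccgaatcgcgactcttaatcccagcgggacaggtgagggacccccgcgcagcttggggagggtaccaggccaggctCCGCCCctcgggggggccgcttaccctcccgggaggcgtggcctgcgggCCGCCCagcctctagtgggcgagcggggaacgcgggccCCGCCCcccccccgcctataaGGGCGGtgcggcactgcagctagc
TUBB: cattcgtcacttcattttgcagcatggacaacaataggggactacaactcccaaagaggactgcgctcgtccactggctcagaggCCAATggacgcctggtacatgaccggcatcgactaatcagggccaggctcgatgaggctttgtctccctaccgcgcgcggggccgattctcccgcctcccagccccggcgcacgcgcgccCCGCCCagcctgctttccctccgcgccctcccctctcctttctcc
TUBA1B: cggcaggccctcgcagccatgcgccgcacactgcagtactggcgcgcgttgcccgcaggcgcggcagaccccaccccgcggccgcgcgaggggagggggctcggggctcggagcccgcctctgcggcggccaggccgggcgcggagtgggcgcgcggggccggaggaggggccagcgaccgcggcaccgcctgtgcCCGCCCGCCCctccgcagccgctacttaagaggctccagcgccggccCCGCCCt

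The TUBB2A window held 5 GC boxes, 1 TATA box and 1 complete CRE, a letter string found in 1.65% of the 35116 promoter windows of the table. GC boxes occurred in 42.6% of all windows, CCAAT boxes in 32.0%, TATA boxes in 10.7%, CHR strings in 13.3% and AP-1 strings in 6.57%. The TUBB2B window held 1 GC box and 1 CCAAT box, without the complete CRE or TATA letters, although TUBB2A and TUBB2B are neighbours on chromosome 6 and both had higher signals. Over 263 aligned columns, these windows matched at 138 (52.5%). By the same alignment, the first TUBB window and the TUBB2A window matched at 48.3%, and those of TUBA1B and TUBA1A at 46.9%. TUBA4A held 4 GC boxes, TUBA1B held 3, and this TUBB window held 1 GC box and 1 CCAAT box. The G and C content was 79.2% for TUBB2A, 75.2% for TUBB2B, 70.8% for TUBA4A, 63.6% for TUBB and 81.2% for TUBA1B, against a median of 58.0% over all windows. The window of TUBB's second start, not printed, held 5 GC boxes and 75.6% G and C, more than at the first start. GC boxes thus stood before isotypes of both directions. A match is a description of letters, and no binding was measured.

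The tubulin isotypes differed from control in both directions. Intensities are given as deposited, whereas each difference is a log2 value after every array was scaled to its 75th percentile, which lay at 784 for control, 713 for CAN and 936 for OA. A difference was called at 1.5-fold, and a gene stands by its brightest probe unless another is named. Under CAN, 5 of the 10 isotypes were called higher (TUBA4A, TUBB2A, TUBB2B, TUBB4B and TUBB6), where 27.5% of the 16644 genes compared were called higher. The 3 called lower were TUBA1A, TUBA1B and TUBB, where 34.1% of all genes were called lower, and TUBA1C and TUBB3 were within 1.5-fold. The median difference was 0.60 over the isotypes and -0.16 over all genes, and the median size regardless of sign was 1.26 against 0.82. RNA came from whole cultures, so a smaller share of cells holding a transcript and less of it per cell cannot be told apart.

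Under OA, TUBA4A, TUBB2A, TUBB2B and TUBB4B, 4 of the 10, were called higher, with 28.1% of the 16166 genes compared in that direction. The 5 isotypes called lower were TUBA1A, TUBA1B, TUBA1C, TUBB and TUBB3, with 28.8% of all genes called lower, and TUBB6 was within 1.5-fold. The isotypes' median difference of -0.05 was close to the 0.01 of all genes, while their median size was 1.90 against 0.72. So the shares of isotypes called were 8 and 9 of 10 against a background in which most genes were called too, and the isotypes spread widely to both sides. Because the isotypes were chosen with earlier results of these data known, these contrasts with all genes are descriptions and not tests. Both comparisons use the same control array, so their values are set side by side and not counted as 2 independent results.

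**Figure D1:**
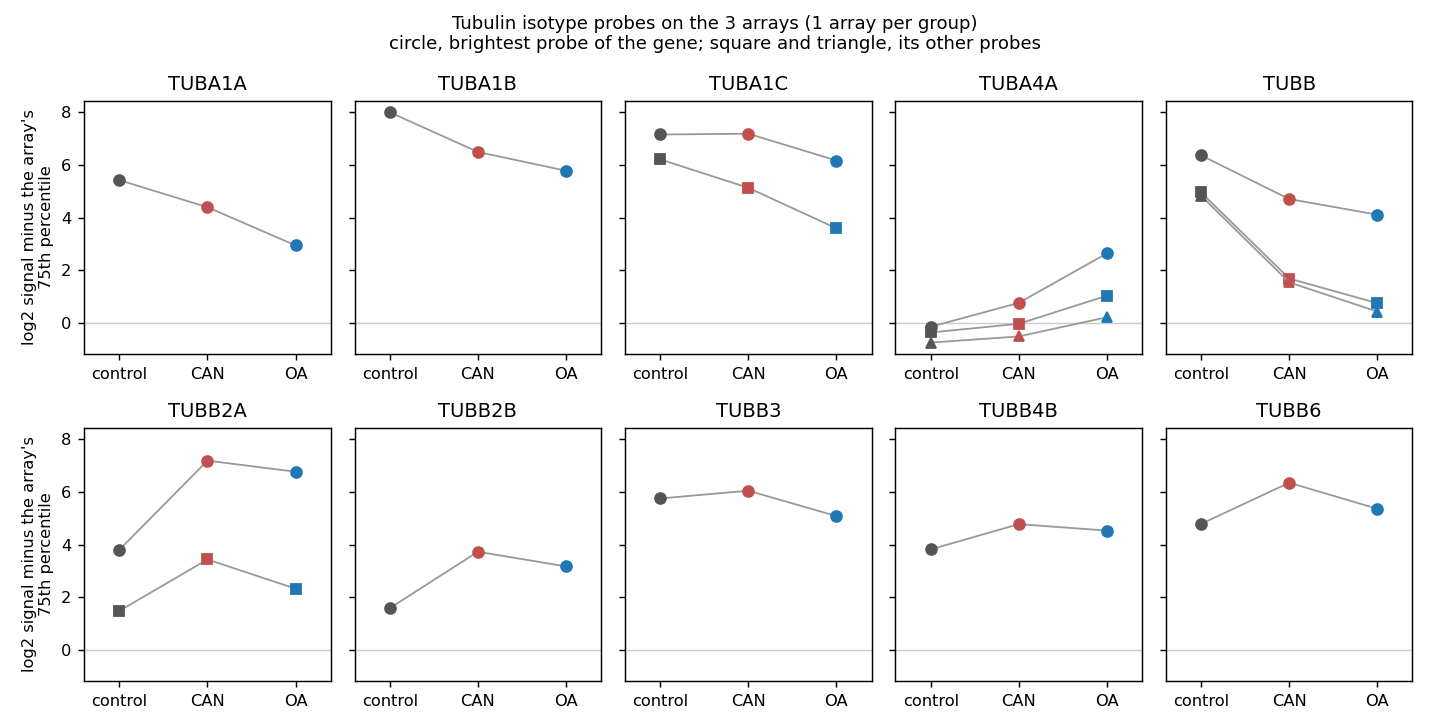
Each panel shows 1 isotype, with log2 signal minus the array's 75th percentile on the vertical axis and the control, cantharidin (CAN) and okadaic acid (OA) arrays on the horizontal axis; points are single arrays without error, circles the brightest probe and other symbols the gene's other probes. TUBA1A, TUBA1B and TUBB step down from control to CAN to OA, TUBA4A steps up, and TUBB2A and TUBB2B are high on both treated arrays; levels of different probes are not comparable.

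Among the α isotypes, TUBA1B, the widely expressed form, had an intensity of 199759 in control, 64073 under CAN and 51427 under OA. Both treated arrays lay far below control, by 2.83-fold under CAN and 4.64-fold under OA. TUBA1A, the α isotype best known in developing neurons, gave 33608, 15001 and 7240. It was lower by 2.04-fold under CAN and by 5.54-fold under OA, and the latter was the lowest difference of any isotype's brightest probe under OA. TUBA1A, TUBA1B and TUBA1C are adjacent on chromosome 12.

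TUBA1C, the remaining gene of that cluster, had probes that differed. Its brightest probe (A_24_P188071) gave 111538, 103474 and 67213, a difference of 0.03 under CAN and of -0.99 (1.98-fold lower) under OA. The other probe (A_24_P58529) gave 58009, 24985 and 11322, and was lower by 2.11-fold and 6.12-fold. On the first probe the CAN array was level with control, whereas on the second both treated arrays were low, as for TUBA1A and TUBA1B. Whether probes of these near-identical genes also captured each other's transcripts was not tested, since probe sequences were not used here.

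TUBA4A, an α isotype known from platelets and neurons and encoded without the final tyrosine of most α isotypes, was the only one of the 4 α members called higher. Its brightest probe (A_23_P154065) gave 716 in control, 1217 under CAN and 5862 under OA, that is, 1.87-fold and 6.86-fold higher. The OA array stood well above the other arrays on all 3 probes. The second probe (A_23_P84448) gave 616, 703 and 1929, or 1.26-fold and 2.62-fold higher, and the third (A_23_P102109) gave 472, 504.5 and 1097, or 1.18-fold and 1.94-fold higher. The call under CAN therefore rested on 1 of 3 probes, and with the median over probes the difference was 0.33.

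Among the β isotypes, TUBB (also called class I) had 3 probes, which all lay below control after treatment. The brightest (A_23_P81912) gave 64391 in control, 18614 under CAN and 16222 under OA, 3.14-fold and 4.74-fold lower. The others were lower still: A_33_P3312258 gave 24347, 2307 and 1588 (9.59-fold and 18.3-fold lower), and A_23_P387057 gave 22280, 2088 and 1274 (9.70-fold and 20.9-fold lower). Both treated arrays were far from control on every probe, and the size of the difference depended on the probe, with log2 differences from -1.65 to -3.28 under CAN and from -2.24 to -4.38 under OA.

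TUBB2A was the isotype farthest above control. Its brightest probe (A_23_P19291) went from 10953 in control to 103142 under CAN and 101340 under OA. These signals were 10.4-fold and 7.75-fold above control after scaling, and the treated arrays were close to each other. Of all genes compared, 2.42% were at least as much higher under CAN and 2.85% under OA. The second probe (A_33_P3365002) gave 2200, 7695 and 4700, which was 3.85-fold and 1.79-fold higher. TUBB2B, its neighbour and closest relative in protein sequence, gave 2362, 9433 and 8433, 4.39-fold and 2.99-fold higher. As for the TUBA1 genes, whether the probes of TUBB, TUBB2A and TUBB2B also captured transcripts of other isotypes was not tested.

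The other β genes differed less. TUBB6 (class V), a β isotype of many non-neuronal tissues, gave 21554 in control, 57780 under CAN and 38286 under OA. Its signal was 2.95-fold higher under CAN, and the difference of 0.57 (1.49-fold) under OA lay just short of the threshold. TUBB4B (class IVb), a form found in most tissues and in cilia, gave 11040, 19458 and 21592, 1.94-fold and 1.64-fold higher. TUBB3 (class III) gave 42066, 46844 and 31614. It was 1.23-fold higher under CAN, within the threshold, and 1.59-fold lower under OA. The calls closest to the threshold depended on the scaling: TUBB3 under OA was -0.41 without scaling and no longer called, and TUBB6 under OA was then 0.83 and called.

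**Figure D2:**
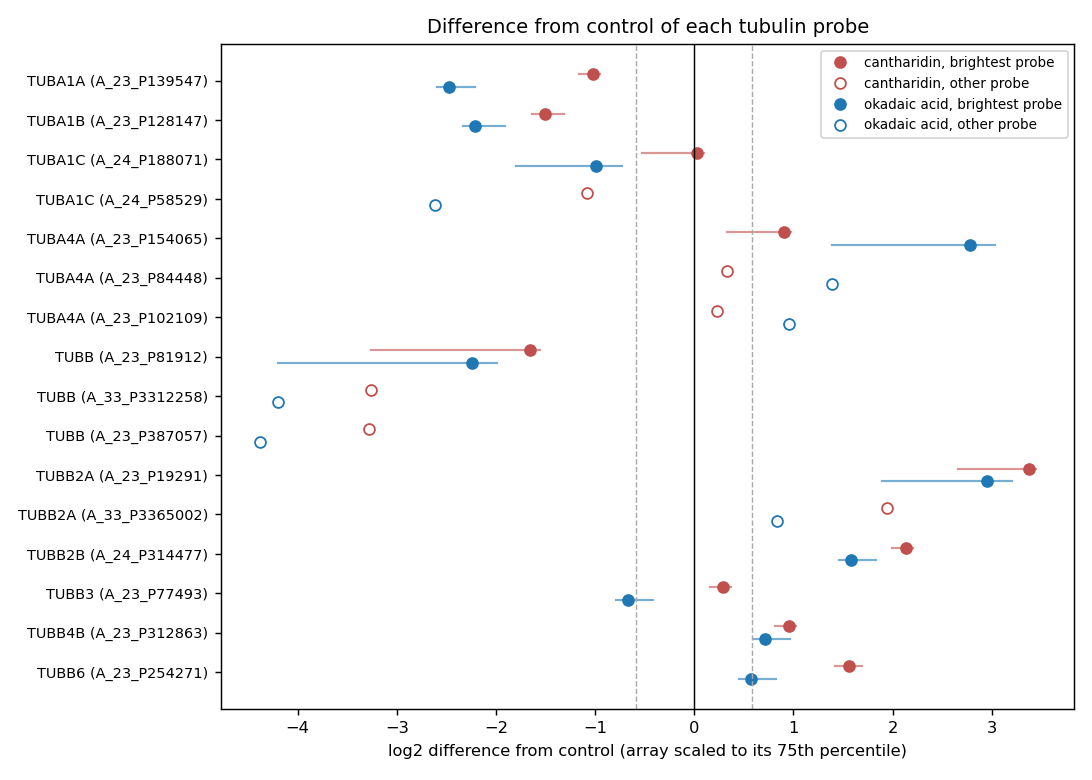
For each tubulin probe the log2 difference from control is plotted on the horizontal axis after scaling to the 75th percentile, in red for cantharidin and in blue for okadaic acid, with filled circles for the brightest probe, open circles for other probes, dashed lines at 1.5-fold and horizontal lines for the range of the gene's value over the other settings tried, apart from the dimmest probe. TUBB lies left of the lower dashed line on all 3 probes and TUBB2A right of the upper one on both, while the CAN value of TUBA1C crosses 0.

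The shift between isotypes can be read without scaling between arrays, since a linear scaling cancels in the ratio of 2 signals of 1 array. Pairs were chosen after the values were known, and only the change of a ratio is given, as levels of different probes are not comparable. The TUBB2A signal relative to TUBB was 32.6-fold above control under CAN and 36.7-fold under OA by brightest probes. Over the 6 probe pairs, the log2 change ran from 3.60 to 6.65 under CAN and from 3.08 to 7.34 under OA. The pairs share probes and arrays, so their common side is not repeated evidence. Relative to TUBB, TUBB2B was 13.8-fold and 14.2-fold higher, TUBB6 9.27-fold and 7.05-fold, TUBB4B 6.10-fold and 7.76-fold, and TUBB3 3.85-fold and 2.98-fold. All 5 other β isotypes had a higher signal relative to TUBB on both treated arrays, with any of the TUBB probes. This follows from the differences given above, in which TUBB was the lowest β isotype under both agents.

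On the α side, TUBA4A was 5.30-fold higher relative to TUBA1B under CAN and 31.8-fold under OA, with log2 changes over its 3 probes from 1.74 to 2.41 and from 3.17 to 4.99. TUBA1A shifted less against TUBA1B, by 0.48 under CAN and -0.26 under OA. For TUBA1C against TUBA1B the change was 1.53 or 0.43 under CAN and 1.23 or -0.40 under OA, depending on the probe. TUBB against TUBA1B shifted by -0.15 and -0.03 with the brightest probes, so the widely expressed α and β forms were lower by similar amounts, and by as much as -1.78 and -2.17 with the other TUBB probes.

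**Figure D3:**
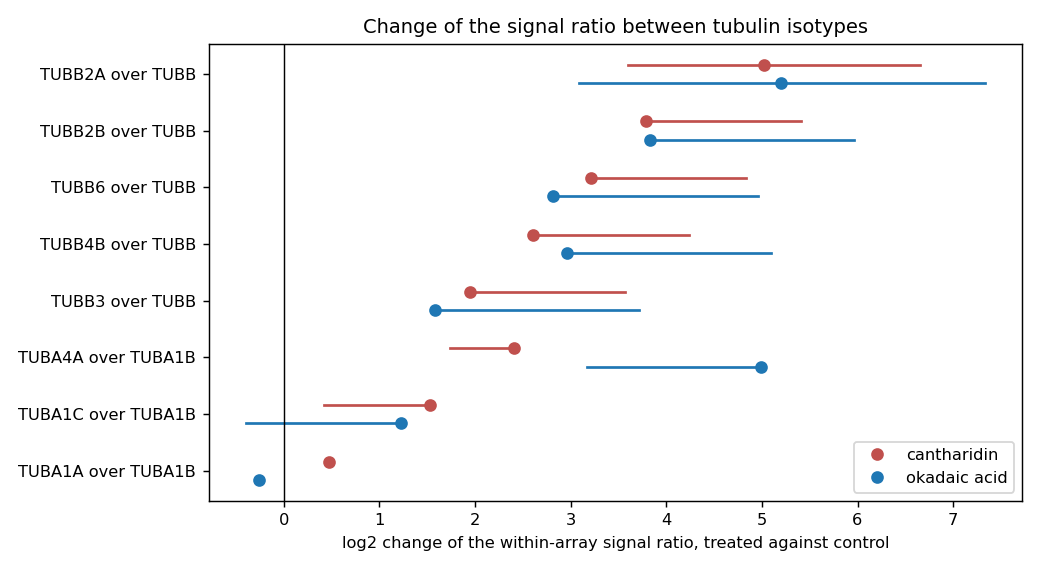
The horizontal axis gives the log2 change, treated against control, of the ratio of 2 isotype signals within an array, with points for the brightest probes and lines for the range over all probe pairs, red for cantharidin and blue for okadaic acid. The β isotypes set against TUBB all lie right of 0, from 1.58 upward, and TUBA4A over TUBA1B is farther right under OA (4.99) than under CAN (2.41).

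The brightest probes of the isotypes were also placed by their pair of differences from control, as distance on the log2 scale. TUBA1B and TUBB were nearest to each other (0.15), an α and a β gene on different chromosomes, followed by TUBA1C and TUBB3 (0.41) and by TUBA1A, whose nearest was TUBA1B (0.54). TUBB2A stood farthest from the rest, 1.85 from TUBB2B, and TUBA4A stood 1.72 from TUBB2B. Other probes gave other neighbours: the remaining TUBB probes lay 2.65 and 2.80 from TUBA1B, the other TUBA1C probe lay 0.15 from TUBA1A, and the second TUBB2A probe lay 0.77 from TUBB2B and 0.47 from TUBB6. Among 14116 genes outside all lists and above background on all arrays, DLX2 was most like TUBB2A, at a distance of 0.07, with intensities of 580, 5307 and 5591 and differences of 3.33 and 3.01. NABP1 (3.36 and 3.06) and TNFAIP8L1 (3.25 and 2.96) came next, and 61 genes lay within 0.5 of TUBB2A.

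**Figure D4:**
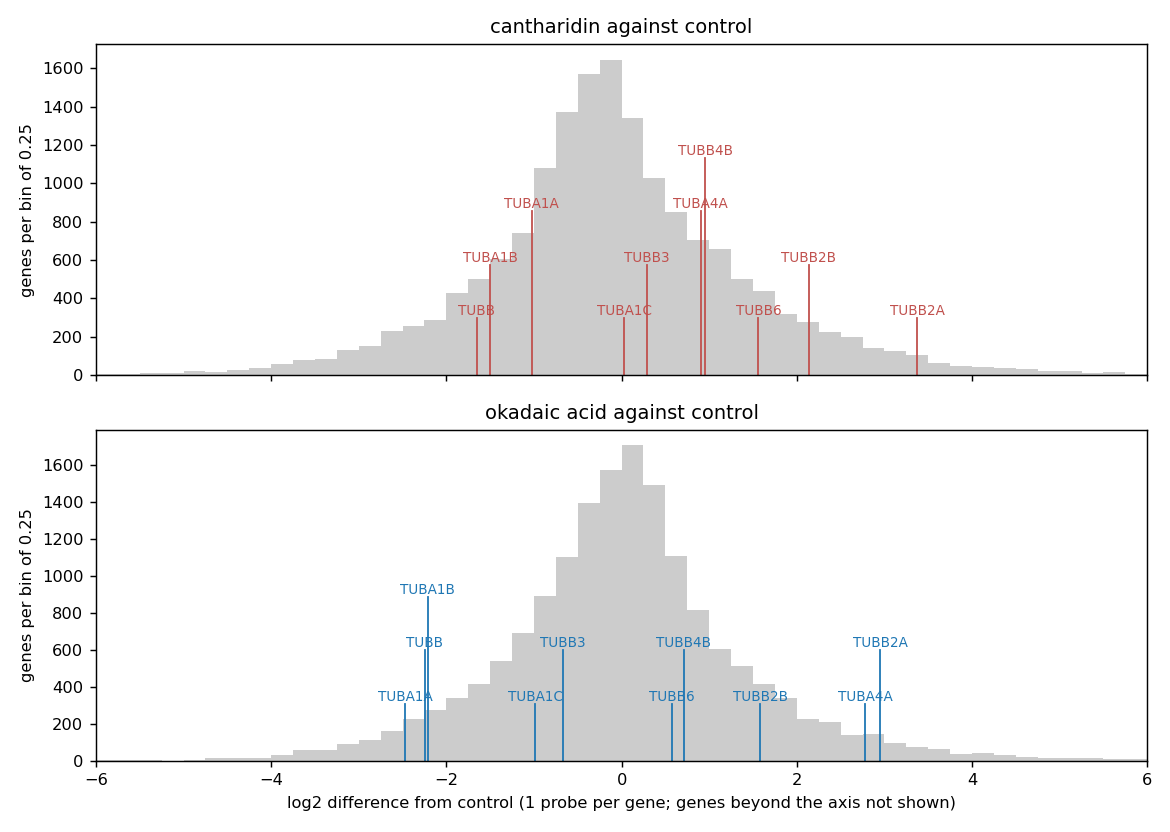
Grey bars count genes by their log2 difference from control (bins of 0.25, 1 probe per gene) for cantharidin above and okadaic acid below, and coloured lines mark the 10 isotypes at their own difference, with line height set only for legibility. Most isotypes lie away from the centre, and TUBB2A lies in the right tail at 3.37 under CAN and 2.95 under OA.

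Set against CAN directly, the OA array gave lower signals for most isotypes. TUBA1A, TUBA1B, TUBA1C, TUBB, TUBB3 and TUBB6, 6 of the 10, were called lower, where 22.3% of the 16200 genes compared were called lower, and TUBA4A alone was called higher, where 29.5% of all genes were. The median difference was -0.65 over the isotypes and 0.13 over all genes. TUBA4A was 3.67-fold higher under OA than under CAN, and 5.09% of all genes were at least as much higher. TUBA1A was 2.72-fold lower under OA than under CAN, TUBA1C 2.02-fold, TUBB6 1.98-fold, TUBB3 1.95-fold, TUBA1B 1.64-fold and TUBB 1.51-fold. TUBB2A, TUBB2B and TUBB4B differed by less than 1.5-fold between the agents by brightest probes. The second TUBB2A probe was 2.15-fold lower under OA than under CAN. On other probes, TUBA1C was 2.90-fold lower, TUBB 1.91-fold and 2.15-fold lower, and TUBA4A 2.09-fold and 1.65-fold higher. The comparison of OA with CAN depended on the scaling, which moved the median of all genes from -0.02 to 0.52. Without scaling TUBA1B, TUBB and TUBB3 were no longer called. The TUBB call, at the threshold, was also lost with the normexp background correction, with scaling to probes detected on all arrays, with the deposited table and with outlier flags ignored.

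Genes that work with tubulin, and the tubulin genes outside the 10 isotypes, were taken from 9 lists of 108 genes, of which 104 were matched. Of the 101 that could be compared under CAN, 20 were called higher and 42 lower, together 61.4% against 61.6% of all genes. Under OA the counts were 28 higher and 35 lower of 100, or 63.0% against 56.9%. These counts use the measured signal, and they include TUBB1 under CAN and TBCEL and TTLL9 under OA, which were not well above background on 1 array and whose bound lay under 1.5-fold. With such genes left out of the calls, the shares were 60.4% against 60.4% under CAN and 61.0% against 55.0% under OA.

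The tubulin genes outside the 10 isotypes also lay on both sides of control. Of 10 compared under CAN, 3 were called higher and 3 lower, where 27.5% and 34.1% of all genes were. TUBB1, among the 3 higher, was dim in control and did not reach 1.5-fold by its bound. Of 9 under OA, 5 were called higher and 2 lower, where 28.1% and 28.8% of all genes were. The lower calls were TUBB4A under CAN only, and the γ-tubulins TUBG1 and TUBG2 under both agents. These γ-tubulins are counted again in the next list. TUBB8, a β isotype known from oocytes, gave 1129 in control, 3672 under CAN and 2942 under OA, 3.58-fold and 2.18-fold higher. TUBA3C, an α isotype of testis, gave 180, 242 and 853, with the call only under OA (3.96-fold higher). TUBE1, the ε-tubulin of centrioles, was 3.33-fold and 1.88-fold higher.

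The γ-tubulin ring complex, which seeds microtubules, had lower signals than control in most members. Of 10 compared, 8 were called lower and 0 higher under CAN, where 34.1% and 27.5% of all genes were, and 8 lower and 1 higher (TUBGCP6) under OA, where 28.8% and 28.1% were. The median difference of the list was -0.995 under CAN and -1.15 under OA, against -0.16 and 0.01 over all genes. TUBG1, the main γ-tubulin gene, gave 26646, 10642 and 18594, 2.27-fold and 1.71-fold lower. TUBG2 was 2.47-fold and 2.48-fold lower, and TUBGCP3, a core subunit, 2.85-fold and 2.62-fold lower. MZT1, a small subunit, stood lowest, with 6145 in control against 177 under CAN and 713 under OA, 31.6-fold and 10.3-fold lower. TUBGCP5, at 76.1 in control, was not well above background on the treated arrays, at least 3.16-fold and at least 1.57-fold lower.

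Among folding factors, 0 of the 8 CCT chaperonin subunits were called higher, and 4 were called lower under CAN and 5 under OA, beside 34.1% and 28.8% of all genes, with medians of -0.62 and -1.09. CCT8 gave 10517, 3079 and 4652, 3.10-fold and 2.70-fold lower. CCT5 was 2.61-fold lower under CAN and at least 4.20-fold lower under OA, where it was not well above background. Its only probe was dim, with 204, 71.3 and 55.9. In control the other subunits gave from 4637 (TCP1) to 88206 (CCT4). Prefoldin subunits differed, with 1 of 6 called higher and 2 lower under either agent. The shares of all genes called higher were 27.5% under CAN and 28.1% under OA. PFDN6 went from 2311 to 400 under CAN (5.25-fold lower) and 3774 under OA (1.37-fold higher, within the threshold), while PFDN2 was 2.02-fold and 1.83-fold higher. Of the 7 cofactors, 1 was called higher and 4 lower under CAN, and 2 higher and 4 lower under OA. TBCEL, counted as lower under OA, did not reach 1.5-fold there by its bound, which leaves 3 lower. TBCC, which helps release the finished dimer, gave 308, 2487 and 1994, 8.90-fold and 5.43-fold higher, in contrast to TBCD, which binds β-tubulin and was 3.58-fold and 5.36-fold lower.

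In the autoregulation list, 4 of 11 genes were called higher and 4 lower under CAN, and 5 higher and 1 lower under OA. The shares of all genes were 27.5% higher and 34.1% lower under CAN, and 28.1% and 28.8% under OA. TTC5, the reader of nascent tubulin, gave 1977 in control, 524 under CAN and 1595 under OA. It was 3.43-fold lower under CAN and 1.48-fold lower, short of the threshold, under OA. SCAPER, its partner, was 1.67-fold lower under CAN and differed by 0.05 under OA. Of the CCR4-NOT subunits, CNOT10 gave 603, 1282 and 7021 (2.34-fold and 9.75-fold higher), CNOT3 was 3.86-fold and 2.08-fold higher, and CNOT2 was 2.84-fold and 3.38-fold higher. Transcript stability was not measured.

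Enzymes that modify tubulin were mostly within the threshold, with 5 of 20 called higher and 4 lower under CAN, and 4 and 4 under OA. All genes gave 27.5% higher and 34.1% lower under CAN, and 28.1% and 28.8% under OA. TTLL9, counted as lower under OA, was dim there and did not reach 1.5-fold by its bound, which leaves 3 lower. TTL, the ligase that restores the terminal tyrosine of α-tubulin, differed by -0.04 under CAN and by -0.56 under OA. VASH1, a carboxypeptidase that removes it, gave 697, 489 and 2562, with a difference of -0.37 under CAN and 3.08-fold higher under OA. TTLL1, a glutamylase, was 2.84-fold and 4.42-fold lower. ATAT1, the acetyltransferase of α-tubulin, was 1.98-fold and 2.74-fold higher by its brightest probe, although its other probe gave -0.47 under CAN. SIRT2, a deacetylase, was 3.34-fold and 1.74-fold higher, with -0.02 on its other probe under OA.

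Of 21 microtubule stabilisers and end binders, 5 were called higher and 8 lower under CAN, and 8 higher and 6 lower under OA. Among all genes, 27.5% were called higher and 34.1% lower under CAN, and 28.1% and 28.8% under OA. MAP1B gave 210, 1149 and 1480, 6.02-fold and 5.90-fold higher, with differences of 1.26 and 2.49 on its other probe. MAPRE2 (EB2), which rides on growing ends, was 2.19-fold and 5.30-fold higher. MAP2, best known from dendrites, had 265 in control and was not well above background after treatment, with a log2 difference of at most -3.46 under CAN and at most -2.24 under OA. MAP9 was 4.33-fold lower under CAN and 2.01-fold higher under OA, with -0.67 and 0.71 on its other probe. Of 10 destabilisers and severing enzymes, 7 were called lower and 1 higher under CAN, beside 34.1% and 27.5% of all genes, and 5 lower and 2 higher under OA, beside 28.8% and 28.1%. KIF2C, a depolymerising kinesin of mitosis, went from 12393 to 665 and 1296, 16.9-fold and 11.4-fold lower. STMN1 (stathmin), which binds free dimers, was 8.21-fold and 2.71-fold lower, with -0.64 and -0.03 on its other probe. KATNA1, the severing subunit of katanin, was 3.45-fold and 3.35-fold higher.

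**Figure D5:**
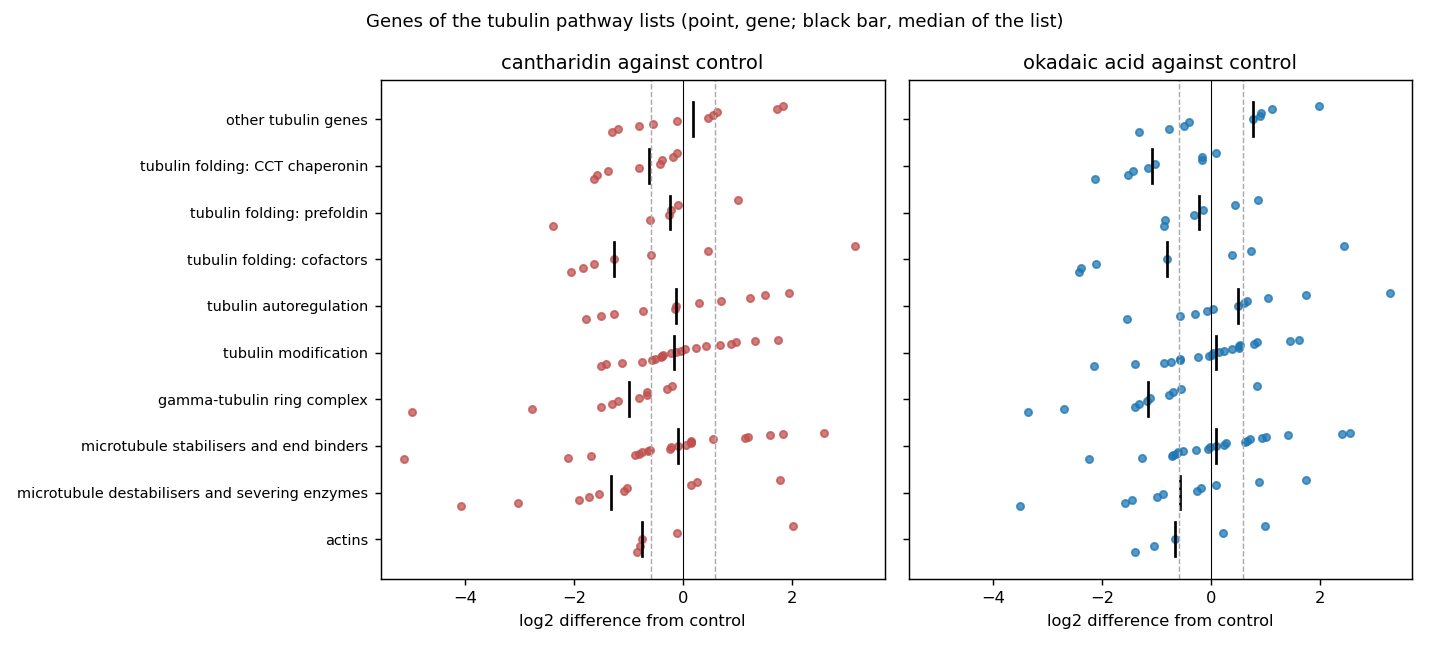
Each point is a gene of a tubulin pathway list at its log2 difference from control, for cantharidin on the left and okadaic acid on the right, with a black bar for the list's median and dashed lines at 1.5-fold; genes dim on 1 array are drawn at their measured value. The points of the γ-tubulin ring complex and the CCT chaperonin lie mostly left of 0, with medians of -0.995 and -0.62 under CAN and -1.15 and -1.09 under OA, while the autoregulation and modification lists straddle 0.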

How the data were processed

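PANC-1 total RNA of each group (control, cantharidin, okadaic acid) was hybridised to 1 of 3 Agilent 1-colour (Cy3) human arrays, and titles in the labels gave the groups. The authors deposited each spot's intensity from Feature Extraction 11.0.1.1, background-subtracted and detrended within the array but not scaled between arrays, with flags for outliers, saturation and signal well above background, on an hg19 annotation. They also deposited a table of log2 values, normalized by a method not given in the sources used here, which served as an alternative.

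Log2 intensity was averaged over unflagged spots and each array's 75th percentile was subtracted. Accessions were matched to RefSeq symbols (GRCh38.p14), and a gene was represented by its brightest probe, by mean log2 signal over the arrays. A gene was compared when either of the arrays set side by side had it well above background, and called at 1.5-fold, the study's threshold. A fold against a dim array is "at least", computed from the higher of the dim signal and that array's lowest signal well above background (35.0, 21.9 and 58.0 for control, CAN and OA). No pseudocount, test or p-value was used, and the number of arrays limits the precision.

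Members and lists were chosen with earlier results of these data known. From each list the genes with the largest difference were named, 4 for lists of over 10 genes and 2 for shorter ones, plus TTC5, SCAPER, TTL, STMN1, TUBG1, ACTB and ACTG1. A gene named by this rule and a marker are not reported here. TUBA3E, CNOT6, TTLL3 and MZT2A were not matched.

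Alternatives were normexp (offset 50, on median spot and background intensity), scaling to the median or to the 75th percentile of probes detected on all arrays, no scaling, quantile normalization, detection required on no array or on all 3, the deposited table, a 2-fold threshold, the median over a gene's probes, outlier flags ignored and, chosen after seeing the data, the dimmest probe. The calling code was run on simulated arrays with planted changes well past the threshold and no dim signals. Such a run checks the code and not the calls made here. Software was Python 3.11.15 (matplotlib 3.10.9, scipy 1.17.1, numpy 2.4.6, pandas 2.3.3) and limma 3.58.1 in R 4.3.3.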

Additional observations from a re-analysis of the deposited data

How the results depend on the processing

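No isotype's called difference changed sign, but values near 0 did: the OA median, TUBA1C under CAN and TUBB4B between the agents (0.15 without scaling). The calls against control that changed were TUBA4A under CAN (median over probes, 0.33, and dimmest probe, 0.23), TUBA1C under CAN (gained with the dimmest probe, -1.08), TUBB3 under OA (lost with quantile normalization, no scaling and the deposited table) and TUBB6 under OA (gained with these, with normexp and with scaling to probes detected on all arrays). The median isotype difference under CAN, 0.60, was 0.49 with normexp, 0.46 without scaling, 0.31 with the median over probes and 0.26 with the dimmest probe. Under OA it was -0.17 with median scaling, 0.030 with scaling to detected probes, 0.058 with quantile normalization, 0.21 without scaling and 0.071 with the deposited table, against -0.05. For OA against CAN, -0.65 became -0.80 with median scaling, -0.26 without scaling, -0.85 with the median over probes and -0.97 with the dimmest probe. Between the agents, TUBB2A gained a call with the median over probes and the dimmest probe, and TUBB2B with normexp and median scaling. Without scaling, 4 isotypes were called between the agents, 3 of them lower. At 2-fold, 3 isotypes were called higher and 3 lower under CAN, and likewise 3 higher and 3 lower under OA. For OA against CAN, 3 were called at 2-fold, 2 of them lower. Over all lists with the actins included, 38 genes were called at 2-fold under OA, against 67 at 1.5-fold. Between the agents, 21 of these genes were called at 2-fold, against 44 at 1.5-fold. Fewer calls at 2-fold follow from the threshold, and for the other changes the cause was not tested. No isotype spot was saturated or failed the flag for signal well above background, whereas the single array per group limits all values. The background correction still moved some values. With normexp, TUBA4A went from 0.90 to 0.67 under CAN and from 2.78 to 2.58 under OA, and TUBB6 from 1.56 to 1.69 under CAN. No paired analysis was possible because each group had 1 array.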

Other observations

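The actins were taken as a second cytoskeletal family. Of 5 actin genes compared, 1 was called higher and 3 lower under either agent, with medians of -0.76 under CAN and -0.65 under OA. Beside them, 27.5% of all genes were called higher and 34.1% lower under CAN, and 28.1% and 28.8% under OA. The lower call of ACTA2 under OA rests on a signal not well above background, and its bound is 1.15-fold. ACTB, the main cytoplasmic actin, gave 287886 in control, 151455 under CAN and 218655 under OA, 1.73-fold and 1.57-fold lower, with -1.99 and -1.80 on its other probe. ACTG1 gave 194883, 104432 and 89029, 1.70-fold and 2.61-fold lower. ACTA1, the skeletal muscle form, was not well above background in control and gave 146 and 94.8 after treatment, higher by at least 4.05-fold under CAN and by at least 2.01-fold under OA.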
